A study of Homo sapiens with 30 samples.

Results

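The BCL2 family decides whether the outer membrane of the mitochondrion stays intact. The 10 genes described here were chosen by name: the survival genes BCL2, BCL2L1 (which encodes BCL-XL) and MCL1, the pore-forming BAK1, and the BH3-only genes BCL2L11 (BIM), BID, BIK, PMAIP1 (NOXA), BMF and BAD, whose products trigger death by engaging the other family members. The choice was made with earlier results of these data known. All 10 were among the 20367 gene symbols of a PRO-Seq table, which counts engaged RNA polymerase in a promoter-proximal window and in the gene body, so the values are transcription and not mRNA or protein. MYC is known to sensitise cells to apoptosis through this family, and survival proteins are known to buffer that signal.

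The cells were G401, a human malignant rhabdoid tumor line that lacks SNF5, the SWI/SNF subunit encoded by SMARCB1. Pools of G401 cells carried a lentiviral, tetracycline-inducible EGFP (the control), SNF5 or OmoMYC, a dominant-negative form of MYC, and every group was selected with G418 and given 1 μg/ml doxycycline for 24 h. PRO-Seq and ATAC-Seq (open chromatin) covered 3 samples per construct and MYC ChIP-Seq 2 samples per construct. The labels do not say whether samples were separate transductions, and a pool of cells of 1 line limits what replicates can show, so p-values measure the spread between these samples alone.

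PRO-Seq gene body totals ran from 28444943 to 46957634 counts per sample. Promoter-proximal totals ran from 518900 to 3386528, with replicate 1 of every construct the lowest. Gene body counts of SMARCB1 were 1 to 6 in the EGFP samples, 2 to 5 in the OmoMYC samples and 2870 to 4467 in the SNF5 samples, as the labels say. Samples with the same replicate number moved together in all constructs, so number was kept as a term in every fit, and scaled counts below are counts divided by each sample's relative library size.

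These sequences are shown because MYC was found at them or because an ATAC-Seq peak was seen there mostly with SNF5. The first are the stretches around the MYC ChIP-Seq summits of the EGFP samples at BCL2L11, chr2:111878109-111878282, and at BID, chr22:18256797-18256897, both in hg19 and on the plus strand. Both lie in introns of longer transcripts and just upstream of an annotated start. Capitals mark CACATG at BCL2L11, a variant of the E-box, and the E-box CACGTG at BID, the sequence that MYC with its partner MAX is known to bind. Both strands were searched.

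BCL2L11: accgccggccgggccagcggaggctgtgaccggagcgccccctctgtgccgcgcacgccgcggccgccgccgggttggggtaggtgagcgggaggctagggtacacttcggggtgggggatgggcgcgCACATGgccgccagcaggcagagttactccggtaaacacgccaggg

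BID: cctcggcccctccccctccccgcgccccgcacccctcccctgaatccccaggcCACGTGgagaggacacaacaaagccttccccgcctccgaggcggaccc

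The third stretch is the part of the BAK1 ATAC-Seq site that lies upstream of both annotated BAK1 starts, chr6:33580294-33580389 on the minus strand, from the RefSeq promoter table (GRCh38.p14). Capitals mark GGGCGG, a GC box, which 45% of all 35116 RefSeq promoter windows of 250 bases before to 50 after a start hold on either strand.

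BAK1: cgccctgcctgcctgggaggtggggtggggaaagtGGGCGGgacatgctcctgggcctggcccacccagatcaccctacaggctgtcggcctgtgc

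First, the level of each gene was read per length in the control cells, since gene bodies ran from 3347 bp for PMAIP1 to 195035 bp for BCL2. MCL1, a short-lived survival protein's gene, was the most transcribed of the family at 1045 ± 175 scaled gene body counts per kb (SD, n = 3), above 99.2% of genes. BCL2L1 followed at 189 ± 36.8 and BAK1 at 167 ± 76.1, and the samples of these 2 genes overlapped. BAD had 94.5 ± 11.3 counts per kb, which met the lowest BAK1 sample.

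BCL2L11 (46.2 ± 26.7), BMF (35.3 ± 17.8), BCL2 (32.0 ± 20.2) and BID (29.3 ± 7.74) formed a middle group on the same per-kb scale whose samples overlapped. BIK, at 10.6 ± 3.56, and PMAIP1, at 3.23 ± 1.61, were lowest and did not overlap with each other or with BID. PMAIP1 thus rested on 7 to 15 raw gene body counts per EGFP sample, which limits the precision of all its values.

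Next, SNF5 was compared with EGFP in the gene body. Of the 10 genes, 3 rose and 4 fell with SNF5 (edgeR quasi-likelihood test with replicate number as a term, Benjamini-Hochberg adjusted p under 0.05 over 15060 genes), beside 17.6% of all tested genes that rose and 16.5% that fell. The 3 that rose were the BH3-only genes PMAIP1 and BCL2L11 and the survival gene BCL2L1. The 4 that fell were the survival gene BCL2, the effector BAK1, and the BH3-only genes BID and BAD. The median log2 fold change of the 10 was 0.03, against −0.03 over all tested genes.

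**Figure D1:**
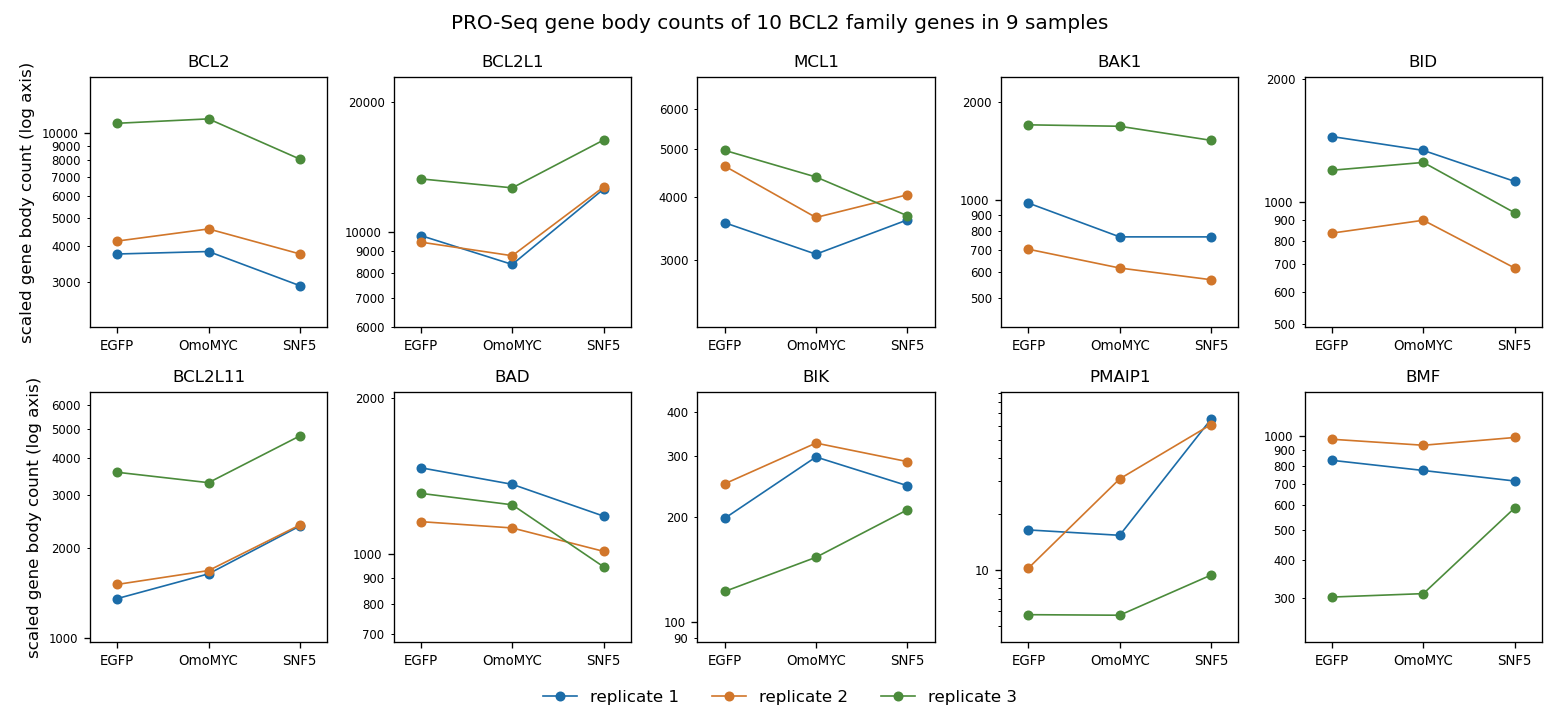
Scaled PRO-Seq gene body counts (log axes, a scale for each gene) of the 10 genes, with a point per sample and a line joining samples of the same replicate number across EGFP, OmoMYC and SNF5. BCL2L11 and BCL2L1 lines climb to SNF5 in all 3 numbers and BCL2, BID, BAK1 and BAD lines end lower. Replicate 3 lies highest in every construct for BCL2L11, BCL2L1, BCL2 and BAK1.

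BCL2L11, whose product BIM binds every survival member of the family, had 1355, 1511 and 3580 scaled gene body counts in the EGFP samples, 1639, 1681 and 3305 with OmoMYC, and 2367, 2386 and 4734 with SNF5, in the order of replicates 1, 2 and 3. The groups overlapped because replicate 3 lay higher in every construct, but within each number the SNF5 sample was the highest. Induction of SNF5 raised it by 0.61 ± 0.08 on the log2 scale (SE; adjusted p = 0.000936, edgeR), with SNF5 over EGFP at 1.75, 1.58 and 1.32 times in replicates 1 to 3. It was called without any 1 of the replicate numbers, at 0.52 to 0.72.

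BCL2L1, which encodes a survival protein that sequesters BIM and BAK, had 9790, 9453 and 13260 scaled counts with EGFP, 8390, 8790 and 12640 with OmoMYC, and 12550, 12690 and 16320 with SNF5. SNF5 was higher in 3 of 3 numbers, and OmoMYC lower in 3 of 3. The change with SNF5 was 0.36 ± 0.06 (adjusted p = 0.00181, edgeR), and it too was called without each number in turn, at 0.35 to 0.38.

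PMAIP1, whose product NOXA neutralises MCL1, had raw gene body counts of 15, 8 and 7 with EGFP, 14, 24 and 7 with OmoMYC, and 69, 57 and 11 with SNF5. Replicates 1 and 2 of SNF5 stood above every other sample, and replicate 3 of SNF5 lay among the control values. The log2 fold change was 1.86 ± 0.44 (adjusted p = 0.0117, edgeR). Scaled counts were higher with SNF5 in 3 of 3 numbers, by 3.95, 5.94 and 1.63 times, but the call was lost without replicate 1 (1.75, adjusted p = 0.114, edgeR) and without replicate 2 (1.53, 0.116).

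Among the genes that fell, BCL2 had 3752, 4165 and 10780 scaled counts with EGFP, 3828, 4594 and 11170 with OmoMYC, and 2906, 3755 and 8074 with SNF5. It changed by −0.31 ± 0.06 on the log2 scale (adjusted p = 0.00538, edgeR), lower in 3 of 3 numbers.

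BID, whose product links caspase-8 to the mitochondrion, had 1445, 836 and 1194 scaled counts with EGFP and 1121, 686 and 938 with SNF5. BAD, a partner of BCL2 and BCL-XL held in check by phosphorylation, had 1469, 1156 and 1311 with EGFP and 1185, 1013 and 946 with SNF5. BAK1, which forms the pore, had 978, 706 and 1699 with EGFP and 770, 569 and 1523 with SNF5. In each of these 3 genes the SNF5 sample was the lower in 3 of 3 numbers while the groups overlapped.

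The log2 fold changes were −0.33 ± 0.07 for BID (adjusted p = 0.00927), −0.32 ± 0.08 for BAD (0.0121) and −0.27 ± 0.08 for BAK1 (0.0332). Without replicate 1 none of the 4 genes that fell passed the test, and without replicate 2 BCL2 alone did. BCL2L11 and BCL2L1 were thus the members called in each such fit, and without replicate 3 all 7 calls held. The share of all genes called moved too, to 8.11% higher and 2.89% lower with replicate 1 left out. With replicate 2 left out the shares were 7.51% and 2.06%, and leaving out replicate 3 gave 25.8% and 31.1%. In a fit without the replicate term, 0 of the 10 passed (1 had an unadjusted p under 0.05), beside 1.45% of all genes that rose and 0.0465% that fell.

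MCL1, BIK and BMF did not pass the test with SNF5. MCL1 had 3557, 4616 and 4962 scaled counts with EGFP and 3603, 4044 and 3674 with SNF5, a log2 fold change of −0.20 ± 0.09 (adjusted p = 0.128). BIK, an endoplasmic reticulum BH3-only gene, had 198, 249 and 122 with EGFP and 246, 289 and 210 with SNF5 (0.44 ± 0.17, adjusted p = 0.0762), higher in 3 of 3 numbers. BMF, a BH3-only gene tied to the cytoskeleton, had 836, 978 and 303 with EGFP and 717, 991 and 587 with SNF5 (0.25 ± 0.20, adjusted p = 0.359), and its numbers moved in different directions.

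OmoMYC was then compared with EGFP to ask how the same genes behave when MYC is blocked. In the gene body 0 of the 10 passed the test by edgeR, and 0 by DESeq2, beside 4.1% of all genes that rose and 4.42% that fell; 3 of the 10 had an unadjusted p under 0.05. These 3 were BCL2L1 (−0.13 ± 0.06), MCL1 (−0.24 ± 0.09) and BIK (0.44 ± 0.17), with adjusted p of 0.155, 0.127 and 0.13. The calls over all genes moved with the replicates kept: 2 genes rose and 0 fell when replicate 1 was left out, and again 2 and 0 when replicate 2 was. When replicate 3 was left out, 20.5% of all genes rose and 24.4% fell, and 5 of the 10 were called, close to that share, BCL2L11 (0.21) and BIK (0.48) as higher and BAK1 (−0.28), BCL2L1 (−0.17) and MCL1 (−0.28) as lower.

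**Figure D2:**
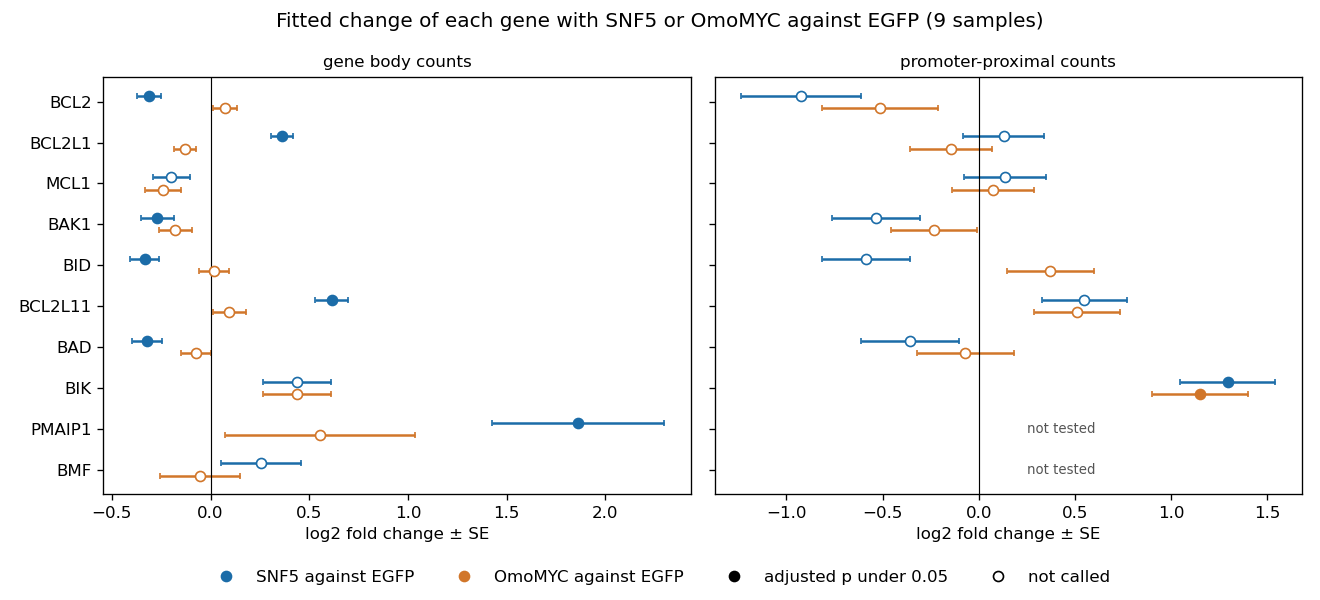
Fitted log2 fold changes ± SE of each gene with SNF5 or OmoMYC against EGFP, in the gene body and in the promoter-proximal window (PMAIP1 and BMF were too low to test in the latter), with filled points at an adjusted p under 0.05. Filled gene body points are all from SNF5, 3 to the right of 0 and 4 to the left, and BIK holds the filled promoter-proximal points, at 1.29 with SNF5 and 1.15 with OmoMYC.

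The difference between SNF5 and OmoMYC was tested directly in the same fit. In the gene body BCL2L11 (0.52 ± 0.08, adjusted p = 0.00312, edgeR) and BCL2L1 (0.49 ± 0.06, 0.000588) were higher with SNF5, beside 11.5% of all genes. BCL2 (−0.39 ± 0.06, 0.00314) and BID (−0.35 ± 0.07, 0.0118) were lower, beside 7.38% of all genes. PMAIP1 (1.31 ± 0.41, 0.0562) and BAD (−0.25 ± 0.08, 0.0515) fell short of the threshold, so for these a difference between the constructs was not shown. BAK1 differed by −0.09 ± 0.08, MCL1 by 0.04 ± 0.09 and BIK by 0.00 ± 0.12.

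All these contrasts lean on the same samples of each construct, so SNF5 and OmoMYC share their EGFP control. Leaving out replicate 1 kept BCL2L11 and BCL2L1 alone, leaving out replicate 2 kept these and BCL2, and leaving out replicate 3 gave 7 calls. Of all genes tested, the calls came to 4.66% higher and 0.824% lower in the first of these fits, 4.2% and 0.803% in the second, and 21.9% and 19.8% in the third. Without the replicate term 0 passed, and 1 had an unadjusted p under 0.05, beside 0.458% of all genes called higher and 0.0398% lower.

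In the promoter-proximal window, where polymerase pauses before elongation, 8 of the 10 genes had the mean of 10 counts needed for the test, without PMAIP1 and BMF. BIK was the 1 gene called against EGFP, with SNF5 and with OmoMYC. With SNF5, 5 of the 8 had an unadjusted p under 0.05 (edgeR), and with OmoMYC 2 did. Over all tested genes the median log2 fold change in this window was −0.05 with SNF5 and 0.13 with OmoMYC. BIK had 24.1, 695 and 179 scaled promoter-proximal counts with EGFP, 81.3, 2040 and 221 with OmoMYC, and 71.4, 1941 and 364 with SNF5. Within each number both constructs lay above EGFP, while the numbers differed far more than the constructs.

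Under SNF5 BIK rose by 1.29 ± 0.25 on the log2 scale (adjusted p = 0.00127, edgeR), beside 2.64% of genes that rose and 1.63% that fell. With OmoMYC it was 1.15 ± 0.25 (adjusted p = 0.014), beside 1.63% and 0.169%. SNF5 and OmoMYC differed by 0.14 ± 0.24 in BIK (adjusted p = 0.816), which does not show that they act alike. Without replicate 2, which holds most of the BIK counts, neither was called (1.21 with SNF5, adjusted p = 0.156, and 0.92 with OmoMYC, adjusted p = 1). Few genes of any kind were called in that fit. With SNF5 0.382% rose and 0.0454% fell, and with OmoMYC 3 of 11008 genes rose and 0 fell.

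**Figure D3:**
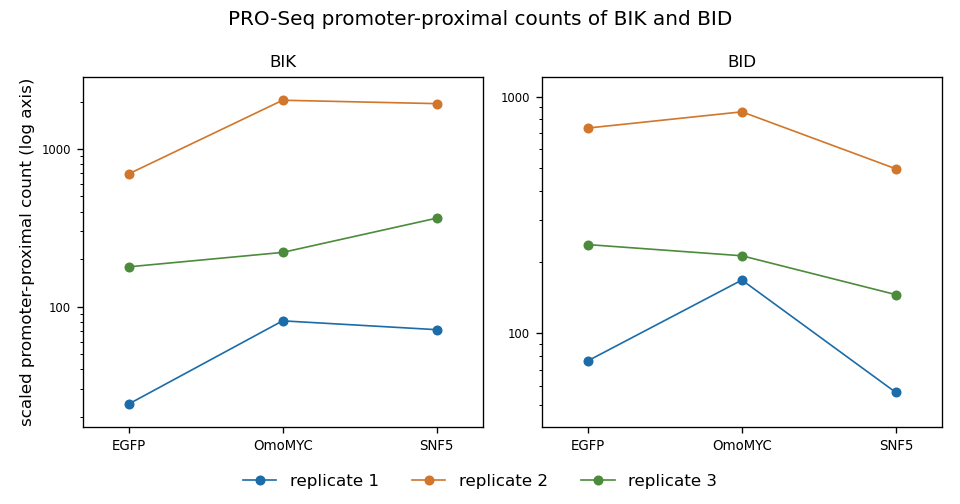
Scaled promoter-proximal PRO-Seq counts (log axes) of BIK and BID, a point per sample with lines joining the same replicate number. BIK lies lowest in EGFP in all 3 numbers, and BID lies lowest in SNF5 in all 3.

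BID had 76.7, 736 and 237 scaled promoter-proximal counts with EGFP, 168, 862 and 213 with OmoMYC, and 56.4, 496 and 146 with SNF5. Its SNF5 sample was the lowest in each number. SNF5 against OmoMYC gave −0.96 ± 0.23 (adjusted p = 0.0305, edgeR), the 1 call in that contrast, where 0.48% of genes were higher and 0.347% lower. The median over all tested genes there was −0.17. Against EGFP, SNF5 gave −0.59 ± 0.23 (adjusted p = 0.132) and OmoMYC 0.37 ± 0.23 (0.45). The call against OmoMYC was lost without replicate 1 (−0.69, adjusted p = 0.193) and without replicate 2 (−1.07, 0.421). Of all genes, 0.532% were higher and 0.358% lower in the first of these fits, and 0.173% and 0.0182% in the second.

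BCL2L11 had 60.3, 320 and 133 scaled promoter-proximal counts with EGFP, 126, 428 and 147 with OmoMYC, and 116, 352 and 212 with SNF5. Both constructs lay above EGFP in 3 of 3 numbers, at 0.51 ± 0.22 with OmoMYC (adjusted p = 0.251) and 0.55 ± 0.22 with SNF5 (0.146), and neither passed. BCL2 rested on 6 to 65 raw promoter-proximal counts and stood at −0.92 ± 0.31 with SNF5 (adjusted p = 0.0825).

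The pausing index is promoter-proximal over gene body density. BIK had values of 43.7, 1002 and 526 with EGFP, 98.1, 2245 and 518 with OmoMYC, and 104, 2416 and 624 with SNF5, far above those of MCL1, which were 3.64, 17.9 and 8.21 with EGFP. Replicate 2 had the highest pausing index of BIK in every construct. Its libraries also had the highest promoter-proximal and the lowest gene body totals in every construct, so this order was not particular to BIK. The BIK pausing index rose with SNF5 by 0.88 ± 0.26 on the log2 scale (adjusted p = 0.0359, edgeR), as 2.02% of genes did, while 1.64% fell.

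With OmoMYC the change in BIK was 0.73 ± 0.26 (adjusted p = 0.12), where the median over all tested genes was 0.14. There 0 of 8 genes passed by edgeR and 0 by DESeq2, 1 had an unadjusted p under 0.05, and 2.18% of all genes rose and 0.0806% fell. SNF5 against OmoMYC gave 0 of 8 by edgeR and 0 by DESeq2, 2 with an unadjusted p under 0.05, beside 0.125% higher and 1.1% lower. The BIK call with SNF5 was lost with DESeq2, with the 2 constructs alone, without replicate 1 (0.78, adjusted p = 0.102) and without replicate 2 (0.64, 0.737). Of all genes, 0.457% rose and 0.448% fell with DESeq2, and 0.805% and 0.769% with the 2 constructs alone. The shares were 2.41% and 3.04% without replicate 1, and 0.0183% and 0.0183% without replicate 2.

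MYC ChIP-Seq was read at the same genes. Of the 10, 4 had a MYC summit within 1 kb of an annotated start in at least 1 EGFP sample, where 25.7% of 20149 protein-coding genes did. BCL2L11 had a peak in both EGFP samples, as 4.98% of protein-coding genes did with overlapping peaks. BCL2L1, BID and BAD had theirs in replicate 2 alone, which held 5396 peaks against 940 in replicate 1.

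At BCL2L11 the summits stood at position 111878159 of chromosome 2 in replicate 1 (5.77-fold over the local background) and 111878232 in replicate 2 (11.8-fold), 332 and 259 bp upstream of the start of the transcript counted in PRO-Seq. CACATG, printed above, began 5 bp from the replicate 2 summit, and CACGTG was not found within 50 bp of either. CACATG was held by 6.45% of the 101-base windows around replicate 2 summits.

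At BID the summit stood at 18256847 of chromosome 22 (6.52-fold), 65 bp upstream of a start, and the E-box began 3 bp from it. The BID transcript counted in PRO-Seq starts elsewhere, at 18257431 on the minus strand, so the summit lies inside that transcript. CACGTG was held by 17.9% of the windows around replicate 2 summits, and by 7.26% of RefSeq promoter windows. BID was the 1 member, of 8 with a RefSeq promoter, whose promoter windows held it.

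The BCL2L1 summit, at 30311685 of chromosome 20 (4.76-fold), lay in an exon 78 bp past a start. The BCL2L1 transcript counted in PRO-Seq starts at 30310656 on the minus strand, so the summit lies more than 1 kb upstream of that start. At BAD the summit, at 64052837 of chromosome 11 (4.38-fold), lay 661 bp upstream of BAD but 108 bp from the start of GPR137, which is transcribed away from BAD, so the peak cannot be assigned to BAD alone. Neither motif was found in these 2 windows.

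None of the 10 had a MYC peak within 1 kb of a start with SNF5, where 0.739% of protein-coding genes did, and the SNF5 lists held 137 and 27 peaks. The 2 OmoMYC lists held a placeholder line and no peak. Of the 4 genes with a MYC peak in EGFP, BCL2L11 and BCL2L1 rose and BID and BAD fell with SNF5 in the gene body, and none passed the test with OmoMYC.

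**Figure D4:**
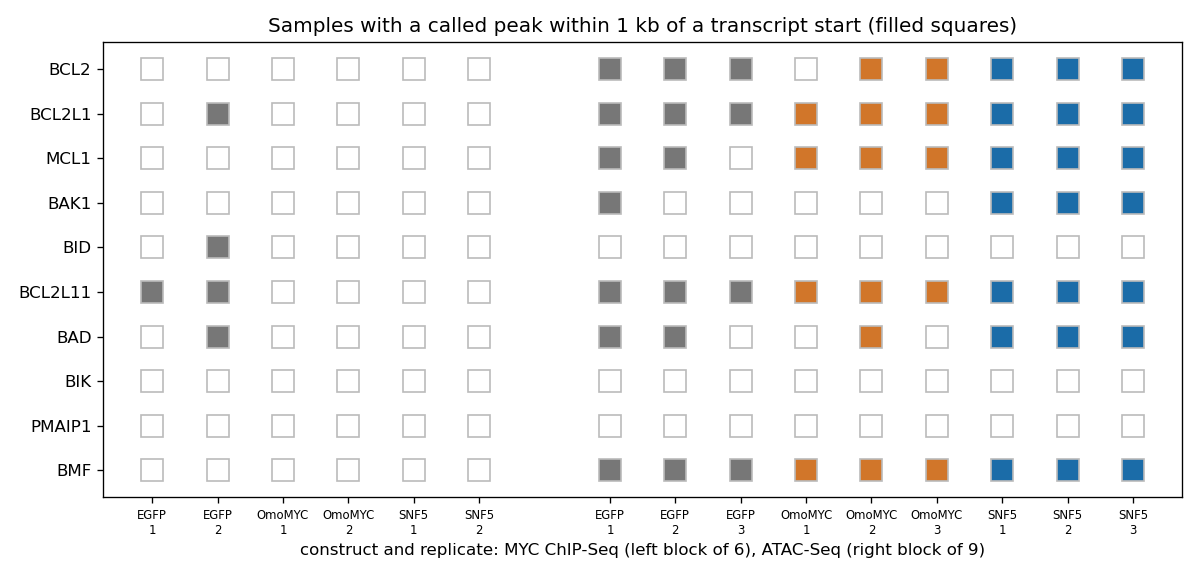
Filled squares mark samples with a called MYC ChIP-Seq peak (left block of 6 samples) or ATAC-Seq peak (right block of 9 samples) whose summit lies within 1 kb of an annotated start of the gene; the OmoMYC ChIP-Seq lists hold no peak at all. BAK1 has an ATAC-Seq peak in 3 SNF5 samples and 1 EGFP sample, and BID, BIK and PMAIP1 have none at the start.

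Open chromatin at the starts was compared next. In the EGFP samples 6 of the 10 genes had an ATAC-Seq peak within 1 kb of a start in at least 2 of 3 samples, beside 43.5% of protein-coding genes. With OmoMYC the count was 5, beside 42%, and with SNF5 it was 7, beside 54.7%. BCL2L1, BCL2L11 and BMF starts were open in all 9 samples, and those of BCL2 and MCL1 in 8.

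The start of BAK1 was open in 1 of 3 EGFP samples (4.24-fold over background), 0 of 3 OmoMYC samples and 3 of 3 SNF5 samples (5.32, 5.8 and 6.19-fold). BAK1 gene body counts fell with SNF5, as given above. BAD was open in 2 EGFP, 1 OmoMYC and 3 SNF5 samples. BID, BIK and PMAIP1 had no peak at a start in any sample, and PMAIP1, which rose with SNF5, had none within 10 kb of the gene. Peak lists were longer with SNF5 (22722 to 33596 peaks) than with EGFP (9208 to 17817). When every list was limited to its 7260 strongest peaks, the open starts numbered 4 with EGFP, 4 with OmoMYC and 3 with SNF5, and the BAK1 start had no peak in any sample. This cut removed most peaks of each SNF5 list. The BMF start, for example, went from 3 of 3 SNF5 samples to 0, and stayed at 3 of 3 with EGFP. Whether the SNF5 count and the BAK1 difference depend on list length was thus not tested.

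At the 10 loci, each extended by 10 kb, the SNF5 samples had 33, 23 and 21 ATAC-Seq peaks, the EGFP samples 11, 14 and 6, and the OmoMYC samples 6, 16 and 10. SNF5 and EGFP samples did not overlap, with means of 25.7 ± 6.43 and 10.3 ± 4.04 (SD, n = 3; two-sided exact permutation p = 0.1, the smallest that 3 against 3 allows). OmoMYC had 10.7 ± 5.03 (exact permutation p = 1 against EGFP). Per 1000 peaks of the sample the SNF5 values were 0.982, 0.865 and 0.924, and the EGFP values 0.881, 0.786 and 0.652, which overlap.

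Merged across the 9 samples, the peaks formed 38 sites at the 10 loci. Of these, 4 (10.5%) had a peak in all 3 SNF5 samples and no EGFP sample, close to the 9.09% of all 40005 sites, and 0 were lost in the same sense, as 0.0075% of all sites were. BCL2L1 held 3 of the 4, all in introns (hg38): chr20:31666625-31666979, chr20:31678625-31678908 and chr20:31699186-31699506. They lie 52.6, 40.7 and 20.1 kb past the nearest BCL2L1 start, and the last of these had a peak in 1 OmoMYC sample too.

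The fourth lay in an exon of BMF, chr15:40089036-40089294, 16.9 kb past a start, and had no OmoMYC peak. With each list limited to 7260 peaks, 0 of 10 sites at these loci were gained, beside 1.33% of 13544 sites. As this cut removed most peaks of each SNF5 list, it does not tell whether the sites at BCL2L1 and BMF opened. BCL2L11, which rose in the gene body with SNF5 as BCL2L1 did, had no gained site. No site at these loci was gained or lost with OmoMYC in all 3 samples.

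**Figure D5:**
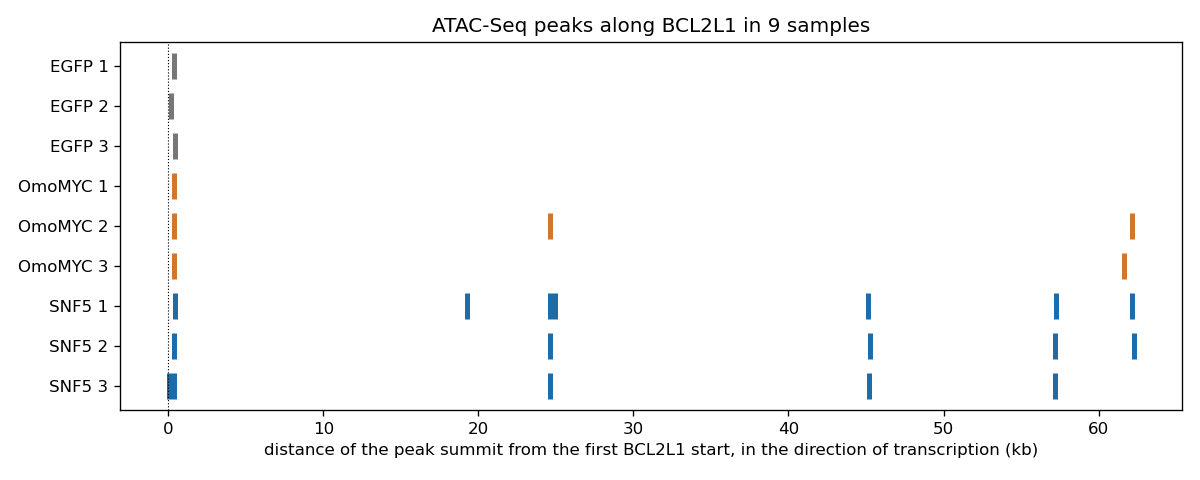
ATAC-Seq peak summits along BCL2L1 in each of the 9 samples, by distance from the first annotated start in the direction of transcription (kb). The start has a peak in every sample, and summits near 25, 45 and 57 kb appear in all 3 SNF5 samples, 1 of them also in OmoMYC replicate 2. With lists of equal length none of the 3 sites was gained. That cut removed most peaks of each SNF5 list, so it cannot tell whether they opened.

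The rest of the death pathway was read in the gene body from lists chosen by function, and the counts of each list stand beside 17.6% of all genes that rose and 16.5% that fell with SNF5. With OmoMYC these shares were 4.1% and 4.42%, and for SNF5 against OmoMYC 11.5% and 7.38%. Of 11 tested genes of the wider BCL2 family, 1 rose and 3 fell with SNF5. BCL2L14 rose by 2.75 ± 0.52 on the log2 scale (adjusted p = 0.00443, edgeR), and BBC3, which encodes the BH3-only protein PUMA, fell by 0.30 (0.0103), with BCL2L12 (−0.33) and BCL2L13 (−0.20). BBC3 also fell with OmoMYC, by 0.33 (0.0299), the 1 call there, and BCL2L15 was lower with SNF5 than with OmoMYC (−1.23).

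Among the caspases, CASP10 rose with SNF5 (0.39) and OmoMYC (0.58), and CASP9, which APAF1 activates, rose with OmoMYC (0.54).

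Of 9 genes for mitochondrial release and the apoptosome, APAF1 (0.21) rose and HTRA2 (−0.30) and VDAC1 (−0.28) fell with SNF5, while VDAC1 and VDAC2 (both −0.35) fell with OmoMYC. The pausing index of HTRA2 rose with SNF5 by 1.21 (adjusted p = 0.0418).

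Of 7 tested death receptor genes, FAS rose with SNF5 (1.41 ± 0.33, adjusted p = 0.0122, edgeR) and TNFRSF1A fell with SNF5 (−0.53) and OmoMYC (−0.41). Of 6 inhibitors of apoptosis, BIRC7 fell with SNF5 (−0.52), BIRC2 rose with OmoMYC (0.24), and XIAP was higher with SNF5 than with OmoMYC (0.31). Of 6 genes for the turnover or tethering of MCL1 and BIM, FBXW7 rose with SNF5 (0.20) and DYNLL2 fell with SNF5 (−0.22) and OmoMYC (−0.32).

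Most of these pathway calls were lost when replicate 1 or replicate 2 was left out. With OmoMYC every gene named here lost its call in both of these fits, among them CASP10 (adjusted p = 0.478 and 0.439, edgeR), CASP9 (0.521 and 0.46) and TNFRSF1A (0.464 and 0.409). With SNF5, TNFRSF1A alone of the genes named here kept its gene body call with any number left out, at −0.55 to −0.50, and BIRC7 lost it in the fit without replicate 2 (adjusted p = 0.0523, edgeR). FAS stood at 1.12 (adjusted p = 0.109, edgeR) with replicate 1 left out, at 1.11 (0.117) with replicate 2 left out and at 2.05 with replicate 3 left out. BCL2L14 ranged from 2.22 to 3.68 over the 3 fits, with adjusted p of 0.0588 and 0.0799 in the first 2 of them, and the other SNF5 calls named here were lost in both, CASP10 among them (0.239 and 0.186). The SNF5 against OmoMYC calls of BCL2L15 (0.143 and 0.154) and XIAP (0.145 and 0.117) were lost too. The pausing index call of HTRA2 was lost without replicate 2 (0.42) and without replicate 3 (0.78, 0.272). In these fits 0.0183% and 2.51% of all genes rose in pausing index with SNF5.

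The patterns of the 2 called genes with the largest SNF5 change were set beside those of all other tested genes, as Pearson correlations over the 9 samples after the mean of each replicate number was removed. ADD3 (0.998), HSD11B1 (0.997) and PLEKHG3 (0.996) were most like BCL2L11, and BPIFB1 (0.981), HS3ST4 (0.976) and ELOVL5 (0.975) most like PMAIP1. The points share libraries and the genes were picked as the highest of many, so these values describe the samples.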

How the data were processed

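G401 cells with induced EGFP, OmoMYC or SNF5 were measured by PRO-Seq (3 samples per construct), ATAC-Seq (3) and MYC ChIP-Seq (2). Members and lists were chosen with earlier results of these data known. For PRO-Seq the authors aligned reads to hg19 and deposited raw counts per RefSeq transcript for the promoter-proximal window and gene body, made with NRSA, with a gene body signal (reads per bp) used to obtain lengths. For ChIP-Seq (hg19) and ATAC-Seq (hg38) the authors called peaks per sample with MACS2 at q of 0.01 and 0.001, and the deposited lists give a fold ratio over background and −log10 q per peak. The lists hold no read counts. The 6 IgG samples were not used here. Other tools named in the submitters' processing notes are Bowtie2, cutadapt, DiffBind and HOMER.

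Counts were tested with edgeR 4.0.16 in R 4.3.3 (quasi-likelihood, construct and replicate number, all 9 samples). Libraries were scaled by their gene body total and an RLE factor of the gene body counts, for both regions. Genes needed a mean of 10 counts, with 1 transcript per symbol. The pausing index was tested as the interaction of region and construct. The study used a batch term, and here deviations from construct means correlated at 0.767 to 0.889 for the 9 pairs of samples sharing a number and −0.675 to 0.128 for the 18 others. On simulated SNF5 counts with 200 genes changed 2-fold, 99.5% were recovered in the gene body (15040 genes), 66.5% in the promoter-proximal window (11246) and 48% by pausing index (11179). The simulation gave all genes of a region the same spread. Most called members changed by less than 2-fold in the gene body, so these rates do not describe how well such changes are found.

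Summits were placed against GENCODE 44 starts in the build of each file. Named genes were all members, called genes of the pathway lists, and the 3 most alike genes of the 2 called members with the largest SNF5 change. DESeq2 1.42.0, other scalings, filters, transcripts and peak rules, and fits without each replicate number were alternatives. Intervals between samples cover spread in these libraries only. A gene of the caspase list is not reported here.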

Additional observations from a re-analysis of the deposited data

How the results depend on the processing

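Replicate number decided the counts of called genes. Without the replicate block, 0 members were called in any gene body, promoter-proximal or pausing index contrast (at most 1 had an unadjusted p under 0.05 in each), against 7 (gene body, SNF5 against EGFP), 4 (gene body, SNF5 against OmoMYC) and 1 in each of the 4 other contrasts with a call. In that fit 0 of all genes were called in any promoter-proximal or pausing index contrast. In the gene body 1.45% rose and 0.0465% fell with SNF5, and 1 gene rose and 0 fell with OmoMYC. The loss of calls was thus not particular to the members. Leaving out 1 number gave 2 to 7, 0 to 5 and 2 to 7 gene body calls for SNF5 against EGFP, OmoMYC against EGFP and SNF5 against OmoMYC, then 0 to 2, 0 to 1 and 0 to 1 promoter-proximal calls, and 0 to 1 pausing index calls in each contrast. Over all genes, promoter-proximal shares in these fits ran from 0.382% to 3.9% higher and 0.0454% to 5.16% lower with SNF5. With OmoMYC they ran from 0.0273% to 7.67% higher and 0% to 0.453% lower. Pausing index shares ran from 0.0183% to 2.51% higher and 0.0183% to 3.04% lower with SNF5. For OmoMYC against EGFP these were 0% to 8.45% higher and 0% to 0.176% lower. For SNF5 against OmoMYC, promoter-proximal shares ran from 0.173% to 0.763% higher and 0.0182% to 3.58% lower. Pausing index shares in that contrast ran from 0% to 0.271% higher and 0.0548% to 4.1% lower. With only the 2 constructs compared, OmoMYC against EGFP gave 1 gene body call (MCL1) and the SNF5 pausing index 0, as did DESeq2. The MCL1 call stands beside 6.56% of all genes that rose and 6.63% that fell in that fit. For promoter-proximal SNF5 against EGFP, no filter on low counts and scaling by promoter-proximal counts gave 2. Of all genes, 3.02% rose and 1.76% fell without the filter, and 4.42% and 4.41% with that scaling. Other scalings, DESeq2 and the first transcript listed kept the remaining counts within 1.5 times. Of 663 member fold changes under alternatives, 36 lost a call, 16 gained one, and none that was called changed sign. These include the pausing index of BIK, BID and BCL2 but not of the other members.

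For peaks, requiring both EGFP samples left 1 member with a MYC peak, and leaving out a sample gave 1 to 4. When each ATAC-Seq list was limited to its 7260 strongest peaks, SNF5 had 3 open starts and 0 gained sites. That cut removed most peaks of each SNF5 list, so it does not tell whether the differences depend on list length. Gained sites were 8 with at least 2 of 3 SNF5 samples and 6 to 7 without 1 number. Both rules are looser than the main one, as the second asked for a peak in the 2 SNF5 samples left and in no EGFP sample left. The shares of all sites under these rules were not taken, so the higher counts do not show more opening at these loci. The difference in peaks per sample kept its direction throughout. Causes were not tested. The low counts of PMAIP1 limit its value, and peak lists without read counts limit what an absent peak shows.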
